A study of Homo sapiens with 8 samples.

Results

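The cytosolic ribosomal protein genes of Ishikawa cells, a human endometrial adenocarcinoma line, are described across 8 RNA-seq libraries. Members were chosen by symbol alone. They are RPL or RPS followed by digits with an optional ending A, X or L, together with RPSA, RPLP0, RPLP1 and RPLP2, and without pseudogenes and S6 kinase genes. The rule found 81 of the 26364 genes in the count table, 49 of the large and 32 of the small ribosomal subunit. Of these, 77 were among the 14201 genes with enough counts to be tested. Cells received 100 nM dexamethasone, a synthetic glucocorticoid (2 libraries), 10 nM 17-beta-estradiol (2 libraries), the combination of these hormones (2 libraries) or the vehicle DMSO (2 libraries). Medium for all 4 groups was RPMI-1640 lacking phenol red, with charcoal-stripped serum, which is low in steroids, and all are the same cell line. The sample labels give a treatment of 8 h, while the treatment protocol gives 1 h, and it is unclear which one these RNAs had. Nothing in the labels tells whether replicate libraries are separate cultures, so each p-value below reflects only the spread among the libraries at hand, and that spread may be technical.

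Each human ribosome is built from ribosomal RNA and about one copy of each ribosomal protein, and the proteins are needed in equal amounts. Their mRNAs are among the most abundant in dividing cells. Most begin with a terminal oligopyrimidine (TOP) tract, a C at the cap followed by an unbroken run of C and T, through which the kinase mTORC1 and the RNA-binding protein LARP1 control their translation. Surplus RPL5 and RPL11, bound to 5S ribosomal RNA, hold MDM2 and thereby stabilise p53. Ribosomal protein genes have given rise to very many processed pseudogenes, which carry nearly the same sequence as the mRNA.

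The start of the mRNA is the sequence feature that members share although the rule did not use it. RefSeq's promoter table (GRCh38.p14) held 64 of the 81 members. In 46 of these (71.9%) a tract of C and at least 4 further pyrimidines began exactly at a listed start, against 1404 of 27305 genes in the table (5.14%). Each line below gives 30 bases, 10 before the listed start and 20 from it, with the tract in capitals. The first set shows the tract beginning at the start itself, in members that the results below turn on.
RPLP0 (chr12:120201092-120201121, minus strand): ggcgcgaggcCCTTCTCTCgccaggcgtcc
RPSA (chr3:39406710-39406739, plus strand): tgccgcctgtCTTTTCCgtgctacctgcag
RPL13A (chr19:49487598-49487627, plus strand): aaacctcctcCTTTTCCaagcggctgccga
RPL22 (chr1:6199576-6199605, minus strand): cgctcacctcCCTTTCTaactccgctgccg
RPS27 (chr1:153990752-153990781, plus strand): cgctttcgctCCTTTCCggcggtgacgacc
RPL39 (chrX:119791611-119791640, minus strand): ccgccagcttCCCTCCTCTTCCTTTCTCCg
RPL41 (chr12:56116623-56116652, plus strand): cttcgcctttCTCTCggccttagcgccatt
The run in RPL39 covered 19 bases, and that in RPL41 covered 5. A tract within 5 bases of the start was present in 53 members (82.8%), against 25.2% of all genes in the table. The next 3 members show such an offset.
RPL3 (chr22:39319604-39319633, minus strand): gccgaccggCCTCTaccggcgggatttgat
RPL4 (chr15:66504836-66504865, minus strand): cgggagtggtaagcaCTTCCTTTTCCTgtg
RPS28 (chr19:8321486-8321515, plus strand): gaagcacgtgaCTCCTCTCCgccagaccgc
RPL3 and RPL4 are core proteins of the large subunit, RPL4 lining the tunnel through which the new peptide leaves. The last set has no tract beginning within 5 bases of the listed start, which says nothing of other start sites of these genes. Runs of C and T further along these windows were not counted.
RPS15 (chr19:1438386-1438415, plus strand): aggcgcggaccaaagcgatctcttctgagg
RPS26 (chr12:56041908-56041937, plus strand): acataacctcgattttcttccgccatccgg
RPS27L (chr15:63157458-63157487, minus strand): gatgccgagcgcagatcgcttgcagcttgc
RPS15 and RPS26 appear again below, and RPS27L is the p53-inducible relative of RPS27, whose window holds the tract CCTTTCC. The other 8 matched members without a tract near the listed start were RPL6, RPL9, RPL10L, RPL15, RPL17, RPL27, RPS4X and RPS29.

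Motifs were searched in the same table on both strands of 300 bases, 250 before and 50 after the start. CCGGAAG, the core letters bound by GABP and other ETS factors, was in 35.9% of members, against 12.2% of all genes. AAGATGGC, letters of the YY1 motif, was in 9.38% of members and 3.52% of all genes, and GGGCGG, the GC box, in 59.4% and 48.3%. TATAAA was in 9.38% of members and 14.0% of all genes, and the E-box CACGTG in 6.25% and 8.77%. The full palindrome of the glucocorticoid response element was in 0 of 64 members and 1 gene of the table. That of the estrogen response element was in 0 of 64 members and 20 genes of the table. These matches describe letters in 1 window per start and are not binding sites.

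Ribosomal protein mRNA took 5.18 to 6.96% of all counts in each library. Levels are given in CPM, the count of a gene per 1e+06 counts of its library after TMM scaling. Divided by coding length, the median tested member had 1443 CPM per kilobase. The count of a whole gene was divided by its coding length only. Members with a very short coding sequence can therefore appear too high, and the comparison between genes is rough. RPLP0, the base of the stalk that recruits elongation factors, was highest at 3877 CPM per kilobase of coding sequence. RPL41, the shortest member with a coding length of 75 bases, followed at 3665, then RPLP1, a stalk protein, at 3581, RPL8 at 2563 and RPL37A at 2559 CPM per kilobase. Before this division RPL41 averaged 274.9 CPM and had rank 67 among the members. The largest numbers of counts came from RPLP0, RPL4, RPL3, RPL8 and RPS2, whose levels averaged 3687, 2279, 2036, 1976 and 1805 CPM over the 8 libraries.

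RPLP0 had 3413 and 4536 CPM in dexamethasone libraries, 3280 and 3586 in estradiol libraries, 4028 and 3498 in combination libraries, and 3033 and 4124 in DMSO libraries. Every group overlapped every other. RPLP1, which works as a dimer with RPLP2, had 1207 and 1378 CPM with dexamethasone, 1027 and 1208 with estradiol, 1404 and 1156 with the combination, and 1016 and 1402 with DMSO. The level of RPLP2 was 549 and 628 CPM with dexamethasone, 497 and 566 with estradiol, 639 and 547 with the combination, and 474 and 643 with DMSO. The stalk genes thus had their lowest and highest libraries, or nearly so, within the DMSO group.

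RPSA, the small-subunit protein also known as the laminin receptor precursor, had 620 and 1340 CPM with dexamethasone, 663 and 542 with estradiol, 1227 and 698 with the combination, and 690 and 1336 with DMSO. In 3 of the 4 groups its 2 libraries lay far apart, and only the estradiol libraries were alike and both below the DMSO libraries. The log2 difference between estradiol and DMSO was -0.75 ± 0.38 (SE), with a 95% interval of -1.58 to 0.08. RPL5, the MDM2-binding protein, was the steadiest member, with 1016 and 1124 CPM with dexamethasone, 996 and 1039 with estradiol, 1073 and 1043 with the combination, and 978 and 1145 with DMSO. Its intervals against DMSO ran from -0.22 to 0.25 with dexamethasone, from -0.30 to 0.18 with estradiol and from -0.24 to 0.23 with the combination.

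Members whose symbols end in L are relatives of a second member. RPL3L, a form known from heart and skeletal muscle, averaged 1.21 CPM, from 9 to 43 counts a library, and 0.995 CPM per coding kilobase, against 1684 for RPL3. RPL39L, known from testis, averaged 2.80 CPM and 18.3 CPM per coding kilobase, against 829 for RPL39. For RPL39L, 7.30 CPM in dexamethasone replicate 2 stood above 1.40 to 3.01 CPM in the other 7 libraries. RPS27L averaged 38.1 CPM and 151 CPM per coding kilobase, against 1349 for RPS27, and its libraries ranged from 33.2 to 44.7 CPM. RPL10L, another testis form, had 0 to 3 counts a library and was not tested, while RPL10 averaged 525 CPM.

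RPL21 and RPS18, ordinary subunits of every ribosome, were not tested either. RPL21 had 0 counts in all 8 libraries. RPS18 had 130 counts in dexamethasone replicate 1, 1 count in estradiol replicate 2 and 0 in the other 6 libraries. A count of 0 allows up to 3 counts, from counting error only. RPL21 shares every 50-base stretch of its coding sequence with at least 1 other gene in GENCODE v29, and RPS18 shares 53.6%. The gene models used for counting, and the handling of reads with several matches, are not stated in the labels, so these values describe the table and not the mRNA.

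The summed level of all members differed more between the DMSO libraries than between the means of any groups. It was 57016 and 70486 CPM in dexamethasone libraries, 52892 and 57030 in estradiol libraries, 64535 and 55890 in combination libraries, and 51047 and 65517 in DMSO libraries. The lowest library and the second highest were thus both DMSO libraries. Group means were 63751 ± 9525 CPM with dexamethasone, 54961 ± 2926 with estradiol, 60212 ± 6113 with the combination and 58282 ± 10232 with DMSO (SD, n = 2 each). An exact permutation test of this sum between a pair of groups, 2 libraries against 2, cannot reach a p under 0.05, and no test of the sum was made. Large-subunit genes held 1.73 to 1.87 times the summed CPM of small-subunit genes in each library, so both subunits moved together. CPM is a share of a library's counts, so the sum shows neither the number of cells nor the amount of RNA per cell.

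**Figure D1:**
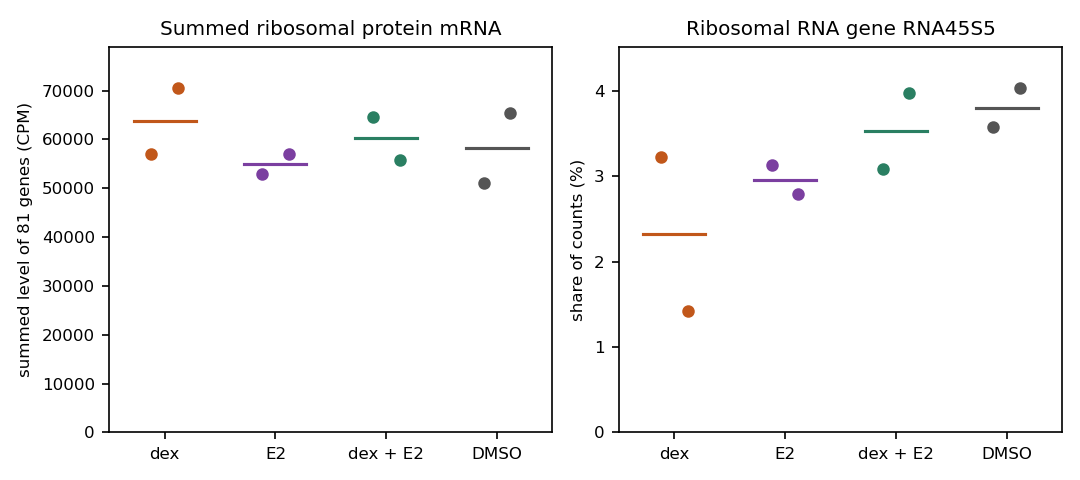
Summed CPM of the 81 ribosomal protein genes (left) and share of counts in percent from the ribosomal RNA gene RNA45S5 (right) in each library; points are libraries and bars are means of 2 libraries, with dex for dexamethasone and E2 for estradiol. The summed level spans 51047 to 65517 CPM within DMSO alone, and dexamethasone replicate 2 has the highest sum, 70486 CPM, and the lowest RNA45S5 share, 1.42%.

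The same libraries stood high or low for nearly every member. Relative to each gene's own mean over the 8 libraries, 70 of 77 members were above it in dexamethasone replicate 2, 72 in combination replicate 1 and 70 in DMSO replicate 2. Only 22 were above it in dexamethasone replicate 1, 11 and 25 in the estradiol libraries, 10 in the combination library without a number and 5 in DMSO replicate 1. The median member was 0.24 (log2) higher in dexamethasone replicate 2 than in replicate 1, 0.14 higher in estradiol replicate 2 than in replicate 1, and 0.39 higher in DMSO replicate 2 than in replicate 1. It was 0.22 higher in combination replicate 1 than in the library without a number.

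Other quantities were read beside this shift, and only some of them moved with it. RNA45S5, whose product is not polyadenylated, took 3.23 and 1.42% of counts in dexamethasone libraries, 3.13 and 2.79% in estradiol libraries, 3.08 and 3.97% in combination libraries, and 3.58 and 4.03% in DMSO libraries. Dexamethasone replicate 2 was thus at the same time highest in ribosomal protein mRNA and lowest in RNA45S5, whereas DMSO replicate 2 was high in both. The 203 other genes with a coding length under 600 bases and a level above 7 log2 CPM had median deviations of -0.03 and 0.11 with dexamethasone, -0.03 and -0.03 with estradiol, 0.04 and -0.03 with the combination, and -0.08 and 0.05 with DMSO. Mitochondrial ribosomal protein genes had -0.02 and 0.12 with dexamethasone, -0.08 and 0.06 with estradiol, 0.08 and -0.04 with the combination, and -0.14 and 0.03 with DMSO. For the cytosolic members the same medians were -0.04 and 0.24, -0.16 and -0.01, 0.15 and -0.08, and -0.22 and 0.16, in that order of groups. Of the 705 tested genes outside the rule with a tract at the listed start, the median deviation stayed between -0.03 and 0.06 in all 8 libraries. The 17 translation factors known for TOP mRNAs had -0.01 and 0.24 with dexamethasone, -0.07 and -0.10 with estradiol, -0.01 and -0.09 with the combination, and -0.10 and 0.09 with DMSO. In dexamethasone replicate 2 their median thus equalled that of the members to 2 decimals, and in combination replicate 1 it was below 0 where the members were above. Among members, the 44 with the tract exactly at a listed start and the 17 other matched members had similar medians in every library. In DMSO replicate 1, for example, these were -0.24 and -0.20. The 17 include members with a tract within 5 bases of the start, such as RPL3, RPL4 and RPS28, so they are not a class without tracts. The part of short length or RNA quality in the shift was not tested.

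**Figure D2:**
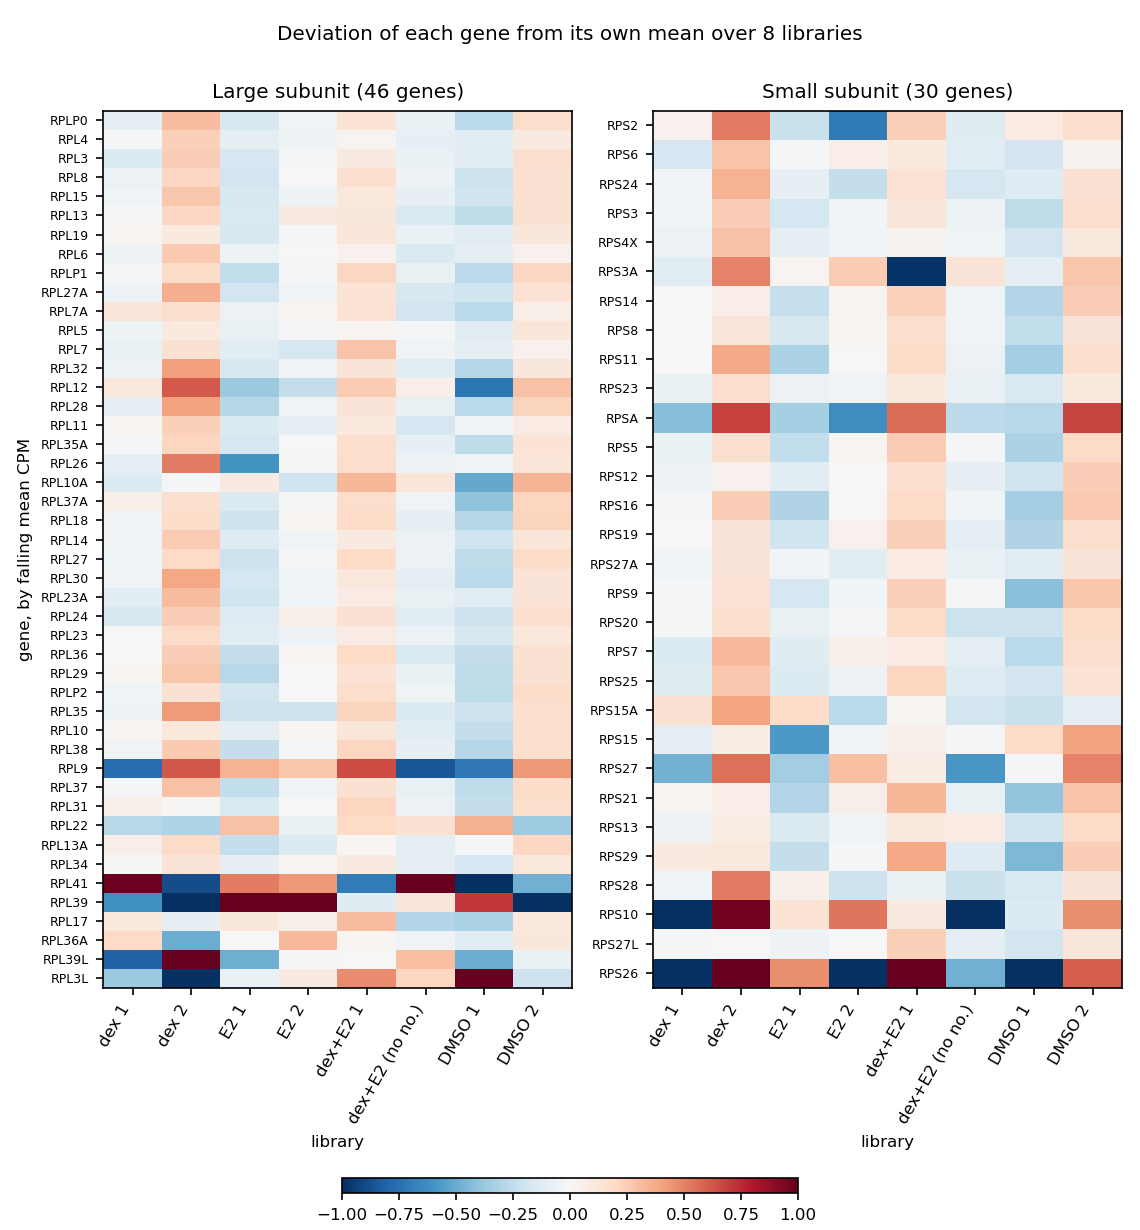
Log2 CPM of 76 of the 77 tested genes minus that gene's mean over the 8 libraries, for the large (left) and small subunit (right), with genes in order of falling mean CPM and 1 column per library; "no no." marks the combination library without a number. Whole columns share a colour, red in dexamethasone replicate 2, combination replicate 1 and DMSO replicate 2, and a few rows such as RPL39, RPL41 and RPL22 run against them.

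Across the 8 libraries, members followed each other. The median correlation between pairs of members was 0.741, against 0.0616 between pairs of the 595 other genes above 8 log2 CPM. These values share the same 8 libraries and describe library effects as well as biology. For 39 members the correlation with the mean of the other members was above 0.9, with RPLP0 at 0.99. Only 6 members had a value below 0. These were RPL39 (-0.77), RPL3L (-0.63), RPL22 (-0.62), RPL41 (-0.42), RPL36A (-0.34) and RPS3A (-0.02). RPS3A had 520 CPM in combination replicate 1, a library where most members were high, against 952 to 1447 CPM in the other 7 libraries.

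No member passed the test in any of 6 comparisons. edgeR's quasi-likelihood test with Benjamini-Hochberg adjustment over all 14201 genes called 0 of 77 members with dexamethasone against DMSO, while it called 0.965% of all genes tested. The count was 0 of 77 with estradiol against DMSO, where 1.8% of all genes were called, and 0 of 77 with the combination against DMSO, where 2.19% were called. It was likewise 0 of 77 for the combination against estradiol, where 0.275% of all genes were called, and 0 of 77 for the combination against dexamethasone, where 2.67% were called. For the interaction, which asks whether the combination differs from the sum of the single-hormone effects on the log2 scale, 0 of 77 members and 0.0211% of all genes were called. At background shares this small, 0 of 77 does not set the members apart, and it does not show that levels were the same.

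At an unadjusted p under 0.05 the same fits held few members too. There were 4 of 77 with dexamethasone against DMSO (5.19%, background 9.84%), 4 with estradiol against DMSO (5.19%, background 11.4%) and 1 with the combination against DMSO (1.3%, background 10.8%). The combination held 4 members against estradiol (5.19%, background 6.37%) and 5 against dexamethasone (6.49%, background 16.7%), and the interaction held 3 (3.9%, background 5.16%). Limma-voom called 0 members in all 6 comparisons. DESeq2 called 1 member with dexamethasone against DMSO, 1 with estradiol against DMSO, which was RPS15 (adjusted p = 0.00833), 1 with the combination against estradiol, and 0 members in the other 3 comparisons. The shares of all genes called by DESeq2 are not given here, so these counts do not set the members apart.

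The intervals bound how large a change could be. The 95% interval of the fold change lay within 2-fold in either direction for 69 of 77 members with dexamethasone against DMSO, 69 with estradiol, 68 with the combination, 67 for the combination against estradiol, 68 for the combination against dexamethasone and 65 for the interaction. The median interval reached 0.35 (log2) to each side of the estimate in the 5 pairwise comparisons and 0.50 in the interaction. An estimate below that size left 0 inside the interval of a typical member with 2 libraries a group. The intervals are not adjusted for the number of genes, so they are not the limit of detection. Larger differences were not called either, such as -0.58 for RPS15 with estradiol against DMSO (edgeR adjusted p = 0.116).

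Small differences in 1 direction were shared by many members. With dexamethasone against DMSO the median log2 difference was 0.11 and 67 of 77 members were positive, while the median over all genes was 0.00. Without dexamethasone replicate 2 that median was -0.02, without DMSO replicate 1 it was -0.05, and without DMSO replicate 2 it was 0.33. With estradiol against DMSO the median was -0.07 and 63 of 77 were negative. It was 0.00 without estradiol replicate 1, -0.24 without DMSO replicate 1 and 0.16 without DMSO replicate 2. With the combination against DMSO the median was 0.06 and 58 of 77 were positive, but -0.06 without combination replicate 1, -0.11 without DMSO replicate 1 and 0.25 without DMSO replicate 2. All of these medians are smaller in size than the 0.39 between the DMSO libraries.

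The comparisons with a single hormone as baseline gave medians of the same size. For the combination against estradiol the median was 0.14 with 66 of 77 positive, and it ranged from 0.02 to 0.23 when each library was left out, lowest without combination replicate 1. For the combination against dexamethasone it was -0.05 with 55 of 77 negative, and it turned to 0.07 without dexamethasone replicate 2 and to 0.03 without the combination library that has no number. The interaction had a median of 0.00 with 39 of 77 positive, -0.22 without DMSO replicate 2 and 0.17 without DMSO replicate 1. Large- and small-subunit members had similar medians, for example 0.12 and 0.10 with dexamethasone against DMSO and -0.07 for each with estradiol against DMSO. The comparisons share libraries, so these medians are not independent of each other.

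**Figure D3:**
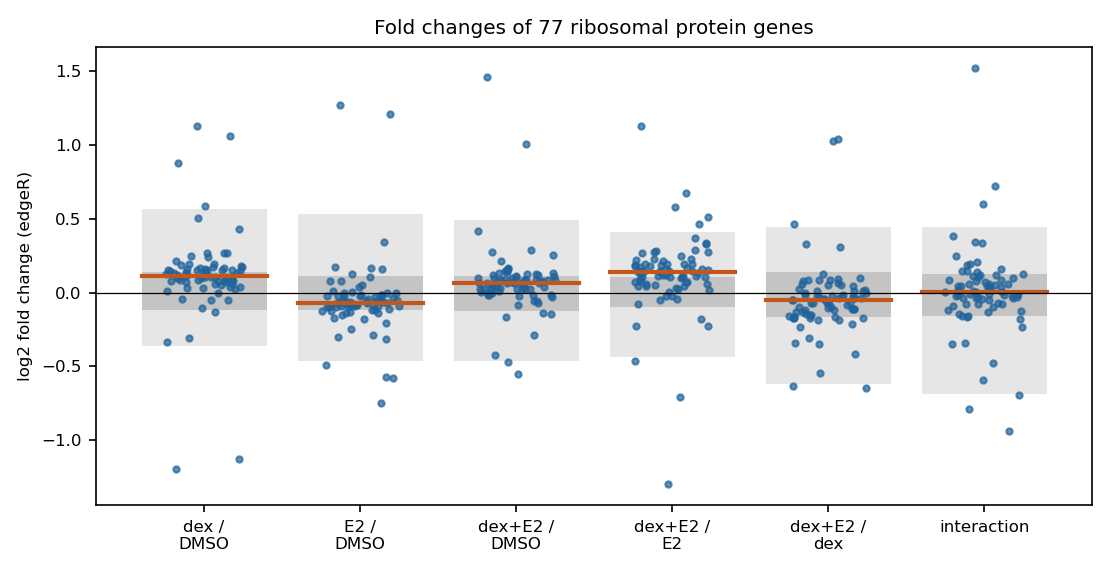
Log2 fold change of each of the 77 tested genes (blue points) in 6 comparisons, with the median of the members as an orange line and, for all 14201 genes tested, the middle 50% in dark grey and the middle 90% in light grey. Most members lie within 0.5 of 0 on the log2 scale, with medians from -0.07 to 0.14.

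Few members separated the groups library by library. With dexamethasone, both libraries were above both DMSO libraries for 3 of 77 members (3.9%, against 18.5% of all genes) and below for 2 (2.6%, against 17.7%). With estradiol, 2 members were above (2.6%, against 18.3%) and 7 below (9.09%, against 17.9%). With the combination, 2 were above the DMSO libraries (2.6%, against 19.8%) and 1 below (1.3%, against 19.3%). The combination was above estradiol for 14 members (18.2%, against 18.1%) and below for 2 (2.6%, against 19.6%). Against dexamethasone it was above for 5 (6.49%, against 24.8%) and below for 4 (5.19%, against 25%).

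RPS15, whose tail reaches the decoding site of the small subunit, had 383 and 430 CPM with dexamethasone, 275 and 401 with estradiol, 422 and 402 with the combination, and 470 and 540 with DMSO. The DMSO libraries were the highest of the 8. The edgeR difference of estradiol against DMSO was -0.58 ± 0.16 (adjusted p = 0.116), that of the combination against DMSO was -0.29 ± 0.16 (adjusted p = 0.587) and the interaction was 0.60 ± 0.22 (adjusted p = 0.924). The same gene was 1 of 2 members with the smallest interaction p, the other being RPL3L, with 1.52 ± 0.60 and an edgeR adjusted p of 0.945 at a level near 1 CPM.

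RPS2, a core protein of the small subunit at the mRNA entry, had 1808 and 2521 CPM with dexamethasone, 1503 and 1077 with estradiol, 2072 and 1616 with the combination, and 1856 and 1984 with DMSO. Both estradiol libraries were below the other 6. The difference of estradiol against DMSO was -0.57 ± 0.19 (edgeR adjusted p = 0.224) and that of the combination against estradiol was 0.52 ± 0.19 (edgeR adjusted p = 0.654). RPL13A, a large-subunit protein also known for silencing inflammatory mRNAs, had 344 and 376 CPM with dexamethasone, 278 and 299 with estradiol, 332 and 307 with the combination, and 326 and 379 with DMSO. Its estradiol libraries were again the lowest 2, with a difference from DMSO of -0.29 ± 0.11 (edgeR adjusted p = 0.281).

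RPL39, a very short protein at the exit tunnel, ran against the other members. It had 66.0 and 31.8 CPM with dexamethasone, 286 and 212 with estradiol, 92.7 and 110 with the combination, and 165 and 50.2 with DMSO. The estradiol libraries were above all others, and the DMSO libraries lay more than 3-fold apart. The edgeR difference of dexamethasone against DMSO was -1.13 ± 0.45 (adjusted p = 0.418), that of estradiol against DMSO was 1.21 ± 0.44 (adjusted p = 0.280), and that of the combination against estradiol was -1.30 ± 0.44 (adjusted p = 0.583). Without DMSO replicate 1 the estradiol difference was 2.31 and passed the test, and without DMSO replicate 2 the dexamethasone difference was -1.75 and passed it. The combination against estradiol passed it without either DMSO library (-1.30 in each case), although that comparison contains none.

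RPL41, which bridges the subunits, had 452 and 123 CPM with dexamethasone, 326 and 309 with estradiol, 141 and 585 with the combination, and 98.7 and 164 with DMSO. Of its combination libraries, the lower lay between the DMSO libraries and the higher far above them, so the groups overlapped. The edgeR difference of the combination against DMSO was 1.46 ± 0.62 (adjusted p = 0.414). RPS27, a zinc-finger protein, had 345 and 219 CPM with the combination and 322 and 461 with DMSO, a difference of -0.47 ± 0.33 (edgeR adjusted p = 0.729).

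The remaining members named by smallest p did not pass the test either. RPS15A had 459 and 543 CPM with dexamethasone, 422 and 363 with the combination, and 354 and 389 with DMSO, and dexamethasone exceeded DMSO by 0.43 ± 0.15 (edgeR adjusted p = 0.341). Its difference of the combination against dexamethasone was -0.35 ± 0.15 (edgeR adjusted p = 0.267), and its interaction was -0.48 ± 0.21 (adjusted p = 0.945). RPL22, an RNA-binding protein of the ribosome's outer surface, had 398 and 385 CPM with the combination and 287 and 281 with dexamethasone, a difference of 0.47 ± 0.19 (edgeR adjusted p = 0.252). RPS28, at the mRNA exit, had 174 and 157 CPM with the combination and 178 and 262 with dexamethasone, a difference of -0.41 ± 0.17 (edgeR adjusted p = 0.250). RPL7 had 1083 and 866 CPM with the combination and 825 and 784 with estradiol, a difference of 0.28 ± 0.13 (edgeR adjusted p = 0.783). RPL3L had 1.55 and 1.30 CPM with the combination, 0.867 and 0.505 with dexamethasone, and 2.26 and 0.972 with DMSO. Its differences were -1.20 ± 0.44 for dexamethasone against DMSO (edgeR adjusted p = 0.377) and 1.03 ± 0.44 for the combination against dexamethasone (adjusted p = 0.271).

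**Figure D4:**
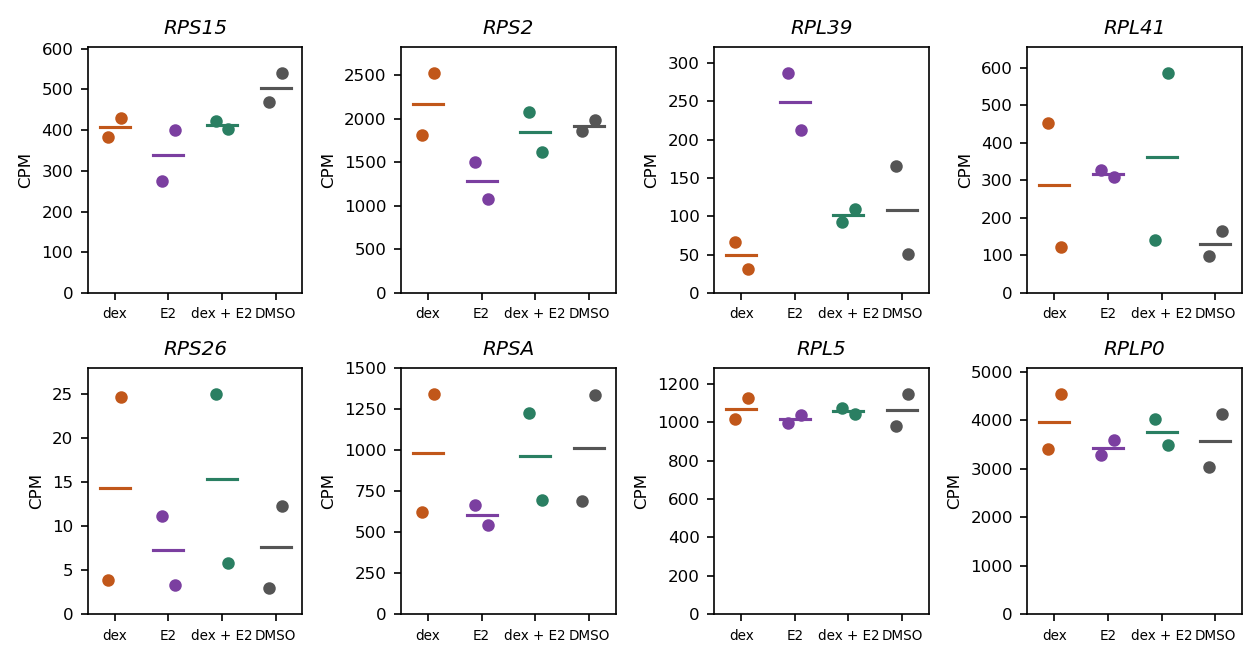
CPM in each library of RPS15, RPS2, RPL39, RPL41, RPS26, RPSA, RPL5 and RPLP0; points are libraries, bars are means of 2 libraries, every axis starts at 0, and dex stands for dexamethasone and E2 for estradiol. RPS15 is highest in the DMSO libraries (470 and 540 CPM) and RPL39 in the estradiol libraries (286 and 212 CPM), while RPS26 differs more than 3-fold within every group, RPSA and RPL41 differ widely within some groups, and RPL5 varies little.

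Members varied more between libraries of a group than other genes did. Their median SD within groups was 0.222 (log2 CPM), against 0.14 over all genes tested. In bins of similar level the members' SD was also the larger. Between 9 and 10 log2 CPM, 34 members had a median SD of 0.226 and 133 other genes had 0.0872. Between 10 and 12 log2 CPM, 18 members had 0.193 and 47 other genes had 0.126. The steadiest members were RPL5 (0.0992), RPL13A (0.105), RPL19 (0.118), RPS27A (0.120) and RPL4 (0.122).

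RPS26, RPL39 and RPL41 had the largest SD over all 8 libraries, which includes differences between groups. Within groups the largest SDs were those of RPS26 (1.52), RPL41 (1.02), RPS10 (0.85), RPL39L (0.85) and RPL9 (0.83), with RPL39 at 0.73. RPS26, which sits at the mRNA exit, had 3.90 and 24.7 CPM with dexamethasone, 11.2 and 3.27 with estradiol, 24.9 and 5.79 with the combination, and 2.94 and 12.2 with DMSO. The libraries of each group were more than 3-fold apart, an 8.49-fold range in all, and its level of 32.2 CPM per coding kilobase was far below the median member. RPL39 ranged 9.0-fold and RPL41 ranged 5.93-fold over the 8 libraries, against 1.46-fold for the median member.

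Many members share sequence with pseudogenes or relatives. Every stretch of 50 bases in each coding sequence was looked up in the transcripts of other genes in GENCODE v29, and the median member shared 45.3% of them. At least 1 was shared by 77 of the 81 members, and all of them were shared by 8, namely RPL21, RPL36A, RPL39, RPL41, RPS10, RPS26, RPS27 and RPS28. The 12 tested members sharing 90% or more had a median within-group SD of 0.495 and a median range of 2.62-fold over the libraries. The 17 sharing under 10% had 0.228 and 1.46-fold, the 25 sharing 10 to 50% had 0.197 and 1.39-fold, and the 23 sharing 50 to 90% had 0.215 and 1.43-fold. Of these 4 classes, the one with 90% or more thus had the widest median spread. Over the 77 members Spearman's rho between the share and the SD was 0.211, a description over genes that share libraries.

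Of the 11 members with an SD above 0.4, 9 shared more than 60% of their windows. The other 2, RPL3L and RPL39L, shared none and had few counts. Among the 12 members that gave the 4 smallest p in the 6 comparisons, 10 shared at least 50% of their windows. Of the 77 tested members, 35 did. The median share of the 12 was 90.7%, against 45.3% over all members. These 12 were picked by p in the same data. Levels in the class of 90% or more ran from 21.7 CPM per coding kilobase (RPL36A) to 3665 (RPL41). RPS10, with 99.02 CPM per coding kilobase, and RPL17, with 36.2, were also low. RPL17, RPS10 and RPL36A overlap the readthrough genes RPL17-C18orf32, RPS10-NUDT3 and RPL36A-HNRNPH2, each of which had 0 counts in all 8 libraries. The members with under 10% shared had medians of 0.11 with dexamethasone against DMSO, -0.07 with estradiol and 0.10 with the combination, close to those of all members, and 0 were called. The 12 members sharing 90% or more had medians of 0.11, 0.10 and 0.05 in these comparisons, so with estradiol they lay on the other side of 0. For the combination against estradiol the median was -0.13 in the class of 90% or more and 0.15 in the class under 10%. Whether reads placed on pseudogenes or dropped as ambiguous set the levels of members with larger shares was not tested.

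**Figure D5:**
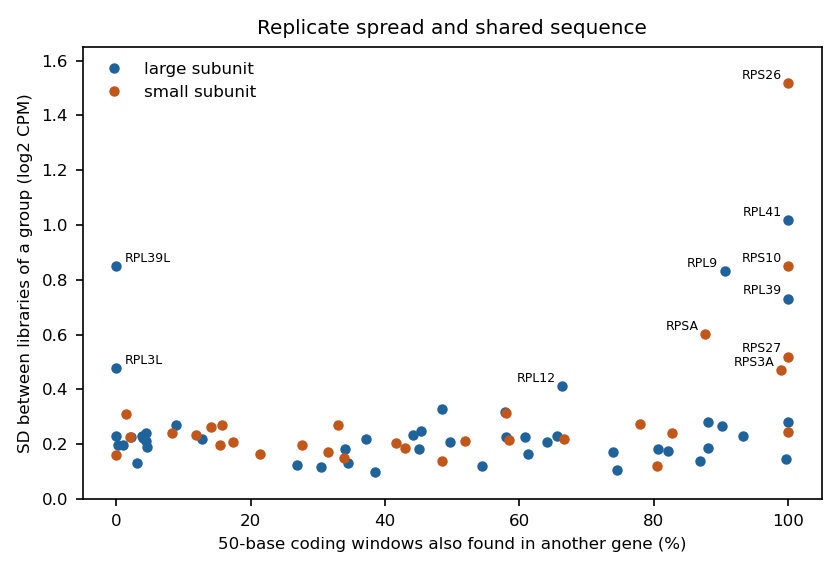
SD of log2 CPM between libraries of a group (pooled over 4 groups of 2) against the percent of 50-base coding windows also found in another gene, for 77 members, with the large subunit in blue and the small subunit in orange; members with an SD above 0.4 are named. Most members below a share of 90% lie between 0.1 and 0.35, and 8 of the named members stand at more than 87%.

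Other genes of the ribosome and of its control were read in the same fits. None of the 17 translation factors with TOP mRNAs, 11 host genes of small nucleolar RNAs, 25 chaperones and importers of ribosomal proteins, 18 regulators of TOP mRNAs and ribosomal protein transcription, 7 relatives outside the rule or 75 mitochondrial ribosomal protein genes passed the test in any comparison. GNB2L1, which encodes the small-subunit scaffold RACK1, had 1439 and 1775 CPM with dexamethasone, 1342 and 1449 with estradiol, 1546 and 1362 with the combination, and 1273 and 1635 with DMSO, in the pattern of the members. EEF1A1, the factor that delivers transfer RNA to the ribosome, had 10122 and 13122 CPM with dexamethasone, 9795 and 9625 with estradiol, 4030 and 7639 with the combination, and 9525 and 8253 with DMSO. Its combination libraries were the lowest 2, and the difference from dexamethasone was -0.99 ± 0.24 (edgeR adjusted p = 0.0575).

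Of 18 genes of mTORC1, its regulators and the S6 kinases, only DDIT4 passed the test. That list was chosen with earlier results of these data known. DDIT4, also named REDD1, is a glucocorticoid-responsive inhibitor of mTORC1. It had 530 and 538 CPM with dexamethasone, 190 and 200 with estradiol, 274.5 and 254.8 with the combination, and 443 and 462 with DMSO, with no overlap between groups. It fell with estradiol against DMSO (-1.22 ± 0.09, edgeR adjusted p = 0.000221), with the combination against DMSO (-0.77 ± 0.09, adjusted p = 0.000937) and with the combination against dexamethasone (-1.01 ± 0.09, adjusted p = 0.00105). The dexamethasone difference from DMSO was 0.24 ± 0.09 (edgeR adjusted p = 0.389).

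Of 9 genes linking ribosomal stress to p53, 4 passed the test in at least 1 comparison. The list was chosen with earlier results of these data known. The counts below are thus no evidence that such genes respond more often than others. Against DMSO, 2 were called with dexamethasone (0.965% of all genes called) and 3 with estradiol (1.8%). With the combination against DMSO, 1 was called up and 2 down (2.19% of all genes called). For the combination, 2 were called against estradiol (0.275% of all genes) and 3 against dexamethasone (2.67%). BTG2, an antiproliferative p53 target, had 70.3 and 74.2 CPM with dexamethasone, 29.9 and 28.6 with estradiol, 52.3 and 50.2 with the combination, and 42.9 and 39.7 with DMSO. It rose with dexamethasone (0.81 ± 0.10, edgeR adjusted p = 0.00156) and fell with estradiol (-0.50 ± 0.10, adjusted p = 0.0298). CDKN1A, which encodes the cell cycle inhibitor p21, had 50.3 and 50.8 CPM with dexamethasone, 36.7 and 36.8 with estradiol, 64.8 and 61.9 with the combination, and 33.1 and 36.8 with DMSO. It rose with dexamethasone (0.53 ± 0.10, edgeR adjusted p = 0.0283) and with the combination (0.86 ± 0.10, adjusted p = 0.000827). PLK2 fell with estradiol (-1.01 ± 0.13) and the combination (-1.50 ± 0.13), and FAS likewise (-0.53 ± 0.10 and -0.45 ± 0.10), all at an edgeR adjusted p under the threshold of 0.05. With the combination against estradiol, BTG2 (0.81 ± 0.10) and CDKN1A (0.78 ± 0.10) rose. With the combination against dexamethasone, PLK2 (-1.27 ± 0.13), BTG2 (-0.49 ± 0.09) and FAS (-0.50 ± 0.10) fell. These 2 comparisons were called at the same edgeR threshold. The members bound to MDM2, RPL5 and RPL11, were not called.

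The libraries held 17846211 to 22487333 counts, with 16969 to 17507 genes detected. Of 6 epithelial markers all were tested, with summed levels of 3124 to 4576 CPM led by KRT8. The sums were 0.853 to 2.12 CPM for leukocyte markers (2 of 6 at 0 throughout) and 465 to 667 CPM for uterine lineage markers. Endothelial markers summed to 7.83 to 11.4 CPM, of which ESAM held 5.74 to 7.77 CPM. PECAM1, CDH5 and TEK stayed at or below 0.0561 CPM. Fibroblast and stromal markers summed to 137 to 200 CPM, of which COL1A1 held 123 to 185 CPM. DCN, LUM and PDGFRB stayed at or below 0.113 CPM. Among the markers, KDR, at most 1.46 CPM in any library, passed the edgeR test with dexamethasone (2.92 ± 0.45) and with the combination (2.59 ± 0.46) against DMSO. ESR1 passed it with estradiol against DMSO (-0.46 ± 0.10) and PAX8 with the combination against dexamethasone (-0.50 ± 0.11).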

How the data were processed

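Per the labels, total RNA of 8 Ishikawa samples went into stranded mRNA libraries. The authors deposited a gene table of raw counts and another of normalised signal; the signal equals the counts divided by 1 factor per library (0.876 to 1.11, largest relative deviation 5.1e-15), and the counts were analysed. Per the submitters' processing notes, the build was hg19 and the tools were DESeq2 1.14.1, featureCounts 1.5.1 from Subread and HISAT2 2.0.4. Annotation, strand setting and the handling of reads with several matches: not given in the sources used here. No 2 libraries of a group agreed within sampling noise (chi-square per degree of freedom 10.2 to 26.3 over all genes, 170 to 513 over members). At a given relative spread this measure rises with the count, and members have high counts, so these ranges do not compare spread. Median within-group SDs were 0.222 (log2 CPM) for members and 0.14 over all genes tested.

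Groups came from the labels. Both combination columns carry number 1; the one matching no title is called the library without a number. edgeR 4.0.16 in R 4.3.3 (filterByExpr, TMM, glmQLFit, glmQLFTest) fitted 1 model to all 8 libraries with 4 group means, Benjamini-Hochberg adjustment over 14201 genes and a threshold of 0.05. DESeq2 1.42.0, limma 3.58.1 (voom), other scalings and filters, and leaving out each library were alternatives. Within-group SDs pool the 4 groups on log2 CPM. Named members were the 4 with the smallest p per comparison, the highest and lowest, the most variable, RPSA, the stalk genes and the L forms; RPL5 and some examples were named after their values were seen. Some members are counted in the totals but not reported here by name. Members and lists were chosen with earlier results of these data known. Sequences are RefSeq's on GRCh38.p14; the counts' build is hg19, so no coordinate was taken from the files. The fits were tested on simulated counts.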

Additional observations from a re-analysis of the deposited data

How the results depend on the processing

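Limits come first from 2 libraries a group and from a shift of the median member between libraries of a group of 0.19 (log2, SD). RLE size factors, library totals, upper-quartile scaling, TMM without the members, limma-voom, at least 10 counts in every library and an adjusted p under 0.01 gave 0 called members in every comparison. These scalings kept the sign of the median in the 5 pairwise comparisons. DESeq2 called 1 member with dexamethasone, 1 (RPS15) with estradiol, and 1 for the combination against estradiol. With no filter on low counts edgeR called 3 with dexamethasone (RPS18 and RPL39 among them), 3 with estradiol (RPS2, RPS15, RPL39), 1 with the combination (RPL41), 2 for the combination against estradiol (RPL39 among them) and 2 for the combination against dexamethasone (RPS18, RPL39). With only the groups compared in the fit it called 1 with estradiol (RPL41), 3 for the combination against estradiol (RPL12 and RPL39 among them) and 1 for the combination against dexamethasone (RPL22). Shares of all genes called in these alternative fits are not given here, so the counts do not set the members apart. The cause of the differences between fits was not tested.

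The replicate block could be fitted on 6 libraries and called 1 member with dexamethasone (RPL39) and 2 with estradiol (RPS15, RPL39), with 239 and 441 genes called in all. The same 6 libraries without the block, a fit chosen after seeing the data, called 0 and 0 members and 106 and 185 genes. Deviations of same-numbered libraries correlated weakly over all genes, at 0.0493 (dexamethasone with estradiol), 0.243 (dexamethasone with DMSO) and 0.153 (estradiol with DMSO). Over members the values were -0.171, 0.505 and -0.158 in the same order. Such libraries share only a number.

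With each library left out in turn, the lone library of that group is assumed to vary like the other groups. Called members then ranged from 0 to 2 with dexamethasone, 0 to 1 with estradiol, 0 to 2 with the combination, 0 to 1 for the combination against estradiol, 0 to 2 for the combination against dexamethasone and 0 to 0 for the interaction. The medians ranged from -0.052 to 0.33, -0.24 to 0.16, -0.11 to 0.25, 0.024 to 0.23, -0.21 to 0.073 and -0.22 to 0.17, in the same order of comparisons. Of 421 recomputed differences of named members, 0 changed direction and some newly passed the threshold. These were the 4 members with the smallest p per comparison in the same data. That choice favours a kept direction, so the 0 says little about members in general.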

Other observations

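Several members are used as reference genes in quantitative PCR. Their within-group SDs were 0.230 (log2 CPM) for RPLP0, 0.105 for RPL13A and 0.118 for RPL19. Those of other common reference genes were 0.0401 for HPRT1, 0.0753 for PGK1, 0.0775 for TFRC, 0.0852 for TBP, 0.156 for GAPDH, 0.17 for ACTB and 0.271 for PPIA. Over the 8 libraries RPLP0 ranged 1.5-fold, RPL19 ranged 1.21-fold and HPRT1 ranged 1.08-fold. None of the 10 reference genes outside the rule passed the test in any comparison.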
